A study of Mus musculus with 8 samples.

Results

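The nuclear genes of the mitochondrial respiratory chain were followed across the cells of mouse liver in 2 models of non-alcoholic steatohepatitis (NASH) and in controls. They were chosen by name, as every gene of the deposited matrix called Nduf (families a, b, c, s and v, subunits of complex I), Sdha to Sdhd (complex II), Uqcr (complex III) or Cox4 to Cox8 (complex IV), without symbols marked as pseudogenes by -ps. This gave 71 of 55450 genes, of which 40 belong by name to complex I, 4 to complex II, 8 to complex III and 19 to complex IV. The naming rule leaves out Ndufab1 and Cyc1, which also encode subunits, and 4 of its genes (Ndufb4c, Cox6c2, Ndufs6b and Ndufa11b) are annotated as processed pseudogenes. RNA was counted in single cells from the livers of 8 C57BL/6 mice of wild-type (WT) genotype, whose ages the labels do not give. The 2 control mice had a normal diet and water, the 3 HFD+F+CCl4 mice had a high-fat diet with fructose solution and intraperitoneal CCl4, and the 3 WD+F+CCl4 mice had a western diet with fructose solution and intraperitoneal CCl4. CCl4 is a chemical that injures hepatocytes, both models share it with fructose, and no group had CCl4 or a diet alone, so the parts of the treatment cannot be told apart. The livers were perfused, digested with enzymes and cleared of red and dead cells, and the droplet libraries held 14956 kept cells of control mice, 31956 of HFD+F+CCl4 mice and 33562 of WD+F+CCl4 mice, 80474 of 88581 barcodes in all.

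The respiratory chain sits in the inner membrane of mitochondria and passes electrons from nutrients to oxygen. Complex I takes them from NADH and complex II from succinate, complex III hands them to cytochrome c, and complex IV reduces oxygen to water, while complexes I, III and IV pump protons that drive ATP synthase. A few core subunits are encoded by mitochondrial DNA and all others by the nucleus, and several complex IV subunits exist as a widely expressed form and a tissue-restricted one. Hepatocytes are rich in mitochondria, which carry out fatty acid oxidation and parts of the urea cycle there.

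Levels are given as counts per 1000000 (CPM) of the unique molecular identifiers (UMIs, 1 per captured RNA molecule) of the same cells, which needs no scaling by gene length since each molecule is tagged at its 3′ end. The kept libraries held between 5305581 UMIs (control 2) and 63878061 UMIs (WD+F+CCl4 3), and their cells had a median of 992.5 UMIs in control 2, 2397 in control 1 and 3159 to 4278 in the NASH mice. Both control libraries stood apart from the others in ways that touch every comparison below. The mitochondrial transcript mt-Nd3 was at no more than 4.52 CPM in the control mice and at 521 to 1402 CPM in the 6 NASH mice, while mt-Nd4l was at 37.3 and 78.4 CPM against 0.737 to 2.48 CPM. Whether the control libraries were made or aligned in another way is not stated in the labels or methods, so a difference between libraries and one between conditions cannot be told apart here. The summed CPM of the hepatocyte markers was higher in both control mice than in any NASH mouse within 7 of the 8 cell types tested, for example 1698 to 2357 against 31.6 to 836 CPM in T cell-like cells. In those 7 types each of the 6 markers was higher in both controls than in every NASH mouse, and none was at 0 in all NASH mice. The control and NASH cells of a type also came in part from different clusters: of the T cell-like cells, 3559 of 3670 in control 1 and 521 of 583 in control 2 were in cluster 6, in which 98.5% of the cells were control cells after scaling groups to equal size. Dendritic cell-like (DC-like) cells fell into cluster 15, led by Xcr1 and Clec9a, which held 263 and 247 of the control cells, and cluster 7, led by Cd209a, which held 116 and 66 control cells and 304 to 917 cells of each NASH mouse. When each cell was named singly from the markers, 53.7% of the DC-like cells kept the name. Of the 7 DC markers, 3 counted as detected in cluster 7 and 4 in cluster 15. Kept libraries shared 732 barcode sequences.

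In all kept cells together the 71 genes summed to 13198 and 12096 CPM in the control mice, 11371, 14423 and 14289 CPM in the HFD+F+CCl4 mice and 15481, 14501 and 14379 CPM in the WD+F+CCl4 mice. Every WD+F+CCl4 mouse was above both controls, while the HFD+F+CCl4 mice lay on both sides of them and HFD+F+CCl4 1 was the lowest of all. Complex I gave 42.7% of this sum, complex II 3.03%, complex III 15.7% and complex IV 38.6%. The 10 most abundant genes made up 38.7%. In the mean over 8 mice, 62 genes reached 5 CPM, 43 exceeded 100 CPM and 9 were below 5 CPM.

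Complex IV held the highest single level. Cox4i1, the widely expressed form of subunit IV, had 879 ± 163 CPM (SD, n = 8 mice), followed by Cox8a at 760 ± 72.4 CPM and Cox6c at 592 ± 55.6 CPM. Among complex III genes Uqcrh, the hinge protein that contacts cytochrome c1, was highest at 559 ± 77.9 CPM and the core protein gene Uqcrc2 lowest at 95.3 ± 7.37 CPM. Ndufa3, an accessory subunit of the membrane arm, led complex I at 393 ± 60.8 CPM. Ndufa4, named after complex I although its protein is now assigned to complex IV, measured 365 ± 94.2 CPM. The succinate dehydrogenase genes were lower, at 138 ± 25.5 CPM for the iron-sulfur subunit Sdhb, 122 ± 16.5 CPM for the flavoprotein Sdha, and 93.2 ± 17.2 and 62.4 ± 6.31 CPM for the membrane anchors Sdhc and Sdhd. At the other end, the testis forms Cox7b2 and Cox8c had 0 and 1 UMI in all kept cells, and the muscle form Cox8b had 6. The complex I genes Ndufb9, Ndufb8 and Ndufb2 each overlap an exon of another annotated gene on the same strand, and their counts are uncertain for that reason.

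**Figure D1:**
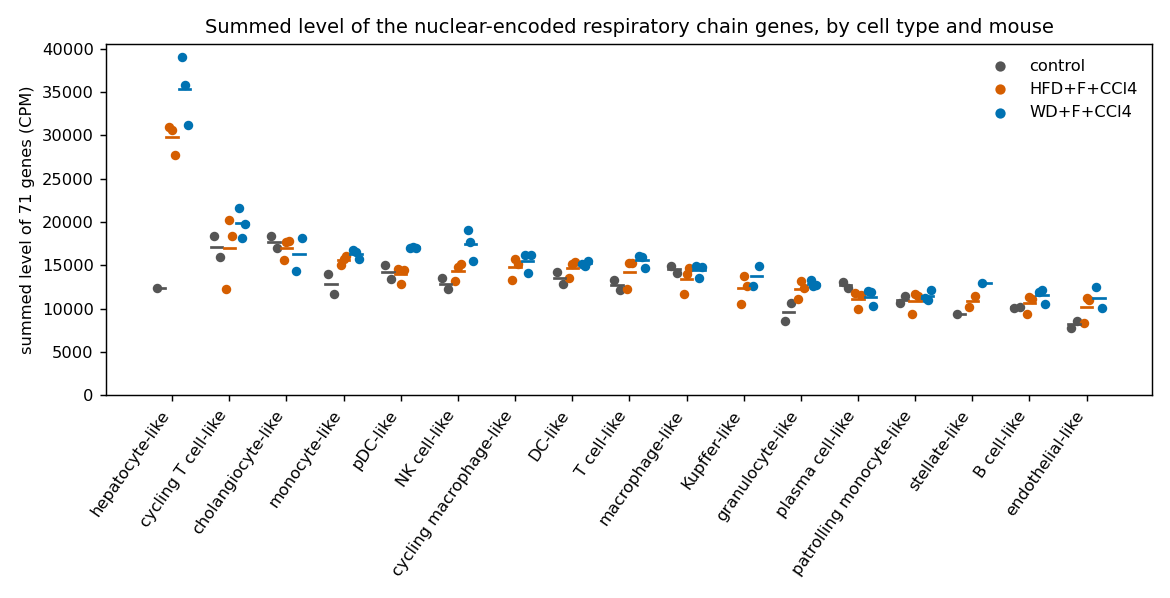
Summed CPM of the 71 genes (y axis) in 17 marker-defined cell types (x axis, ordered by the mean over mice). Each dot is 1 mouse with at least 10 cells of the type and each bar a group mean. Hepatocyte-like cells of the 6 NASH mice lie between 27745 and 38966 CPM, above every other type.

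Cells were clustered without these genes and named from marker genes, so that each name below means cells like that type. Hepatocyte-like cells had the highest mean sum, 29666 ± 8494 CPM (SD, n = 7 mice), which came from the 6 NASH mice, while in control 1 they were below several other types. They were followed by cycling T cell-like (18077 ± 2886, n = 8) and cholangiocyte-like cells (16992 ± 1518, n = 7), the lining cells of bile ducts. Monocyte-like, plasmacytoid dendritic cell-like, NK cell-like and cycling macrophage-like cells followed within 15144 to 15180 CPM. The lowest means were those of endothelial-like (9919 ± 1730, n = 7), B cell-like (10838 ± 948, n = 8), stellate-like (11001 ± 1596, n = 4) and patrolling monocyte-like cells (11114 ± 843, n = 8). The ranges over mice overlapped between each type and its neighbour in this order, although hepatocyte-like and cycling T cell-like cells overlapped through control 1 alone (27745 CPM or more against 21570 CPM or less in the NASH mice). Of the 62 genes at 5 CPM or more, 49 had their highest mean over mice in hepatocyte-like cells, 6 in cycling T cell-like and 4 in cholangiocyte-like cells, while endothelial-like cells were lowest for 17 and B cell-like cells for 15. The relative levels of the 62 genes were much alike among types: Pearson's r of the mean profiles ran from 0.642 to 0.994 over the 136 pairs of types (median 0.943), which is a correlation across genes that share their libraries and serves as a description.

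In hepatocyte-like cells the sum was 12345 CPM in control 1 (51 cells; control 2 had only 2 such cells), 30974, 30659 and 27745 CPM in the HFD+F+CCl4 mice (103, 157 and 33 cells) and 38966, 35805 and 31169 CPM in the WD+F+CCl4 mice (321, 151 and 98 cells). The 6 NASH mice averaged 32553 ± 4070 CPM, and no mouse exceeded 21570 CPM in any other type. In control 1 the hepatocyte-like value was below that of cycling T cell-like (18383 CPM), cholangiocyte-like (18339), plasmacytoid dendritic cell-like (pDC-like, 14983), monocyte-like (13990) and NK cell-like cells (13494). It was also below that of DC-like (14257 CPM), T cell-like (13272), plasma cell-like (13020) and macrophage-like cells (14152 or more in both controls). The control cells also differed in kind: their hepatocyte markers summed to 91860 CPM against 5883 to 38798 CPM in the NASH mice, their albumin (Alb) was at 52621 CPM against 1115 to 20745 CPM, and their fatty acid-binding protein gene Fabp1 was at 5598 CPM against 12894 to 31491 CPM.

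A fit of the UMI counts in these cells, added after the data were seen, took the 1 control mouse to vary like the other groups (edgeR's quasi-likelihood test, adjusted over all genes tested in the type). Of 60 genes tested, WD+F+CCl4 called 2 higher, beside 1.3% of all genes, and HFD+F+CCl4 called 0, beside 0.227%, with 35 and 23 at an unadjusted p under 0.05. The median log2 fold change of the genes was 1.20 and 0.90, where that of all genes was 0.28 and 0.26. Cox5b, a complex IV subunit on the matrix side, had 170 CPM in control 1, 677, 722 and 507 CPM in the HFD+F+CCl4 mice and 1233, 995 and 752 CPM in the WD+F+CCl4 mice (2.19 for WD+F+CCl4, SE 0.532, adjusted p = 0.041). Ndufv1, the flavoprotein of complex I that holds its FMN, had 1 UMI in control 1 (9.42 CPM) and 116 to 207 CPM in the NASH mice (adjusted p = 0.0324 for WD+F+CCl4). The 2 calls became 0 without any 1 of the HFD+F+CCl4 mice, 1 without WD+F+CCl4 1 or 2 and 15 without WD+F+CCl4 3, and HFD+F+CCl4 had 1 call without WD+F+CCl4 1 or 3.

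The 13 transcripts encoded by mitochondrial DNA were far higher in control 1 than in any NASH mouse in these cells, where the nuclear sum was lower. They summed to 84227 CPM in control 1, 14707, 18292 and 15301 CPM in the HFD+F+CCl4 mice and 2390, 4259 and 19154 CPM in the WD+F+CCl4 mice. The ratio of mitochondrially to nuclear-encoded transcripts was thus 6.82 in the control mouse and 0.061 to 0.615 in the NASH mice. Kept cells had under 25% mitochondrial UMIs by the filter, which limits this ratio.

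**Figure D2:**
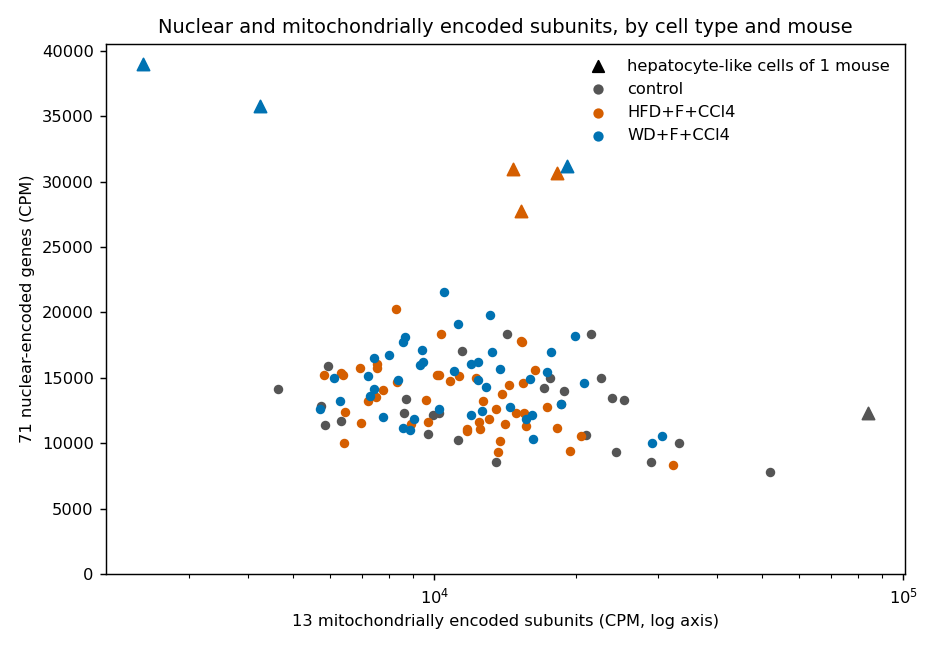
Summed CPM of the 13 mitochondrially encoded transcripts (x axis, log scale) against that of the 71 nuclear genes (y axis), 1 point per cell type and mouse; triangles are hepatocyte-like cells, coloured by group. The hepatocyte-like cells of control 1 lie at the far right (84227 CPM) and at 12345 CPM on the y axis, while those of the NASH mice fill the top of the plot.

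Among the single genes, Uqcrq, a small complex III subunit, differed most between hepatocyte-like cells and the next type, with 688 CPM in control 1, 3112, 2522 and 2218 CPM in the HFD+F+CCl4 mice and 3176, 3125 and 2425 CPM in the WD+F+CCl4 mice. Its mean there was 2467 CPM, 5.65 times that of the next type, cycling T cell-like cells (436 CPM). Cox4i1 had 594 CPM in control 1 and 1183 to 1460 CPM in the NASH mice, and Sdhb 94.2 CPM in control 1 and 336 to 402 CPM in the NASH mice. Sdha was less distinct, with 151 CPM in control 1, 335, 317 and 156 CPM in the HFD+F+CCl4 mice and 222, 223 and 283 CPM in the WD+F+CCl4 mice.

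The tissue-restricted forms of complex IV subunits were low in most cell types. Cox6a2, the form of subunit VIa used in heart and skeletal muscle, was at its highest in pDC-like cells, the producers of type I interferon. There it measured 1410 and 832 CPM in the control mice, 1354, 1122 and 1358 CPM in the HFD+F+CCl4 mice and 1369, 1166 and 1818 CPM in the WD+F+CCl4 mice. The groups overlapped, and the mean was 1304 ± 283 CPM (SD, n = 8). The widely expressed partner Cox6a1 stood at 313 ± 55.7 CPM in the same cells, so that Cox6a2 made up between 72.8% (68.5 to 76.7%, exact binomial 95% interval for counting error) and 84.8% (83.6 to 86.0%) of the pair's UMIs per mouse. The type with the next highest mean, granulocyte-like cells, had 43.8 ± 102 CPM, most of it from 12 UMIs in the 29 such cells of control 2 (297 CPM). The unnamed cluster 9, of 3643 cells that were all but 1 from control mice and were led by genes of secreted hepatocyte proteins such as Mup3 and Serpina3k, had 65.6 and 79.1 CPM in the control mice. In the other named types the median mouse had 0 to 10.3 CPM, which stands as the background in cells not known for this gene. The difference between pDC-like and granulocyte-like cells was 6.76 ± 2.31 on the log2(CPM + 1) scale (SD), higher in 8 of 8 mice. In an exact permutation test that flipped the sign of each mouse's difference (two-sided), p was 0.00781, the smallest that 8 mice allow, and 0.0547 after Benjamini-Hochberg adjustment over the 7 isoform genes tested. Since the types were ranked on the same mice, this p describes the gap between the top types and does not stand for an independent test.

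**Figure D3:**
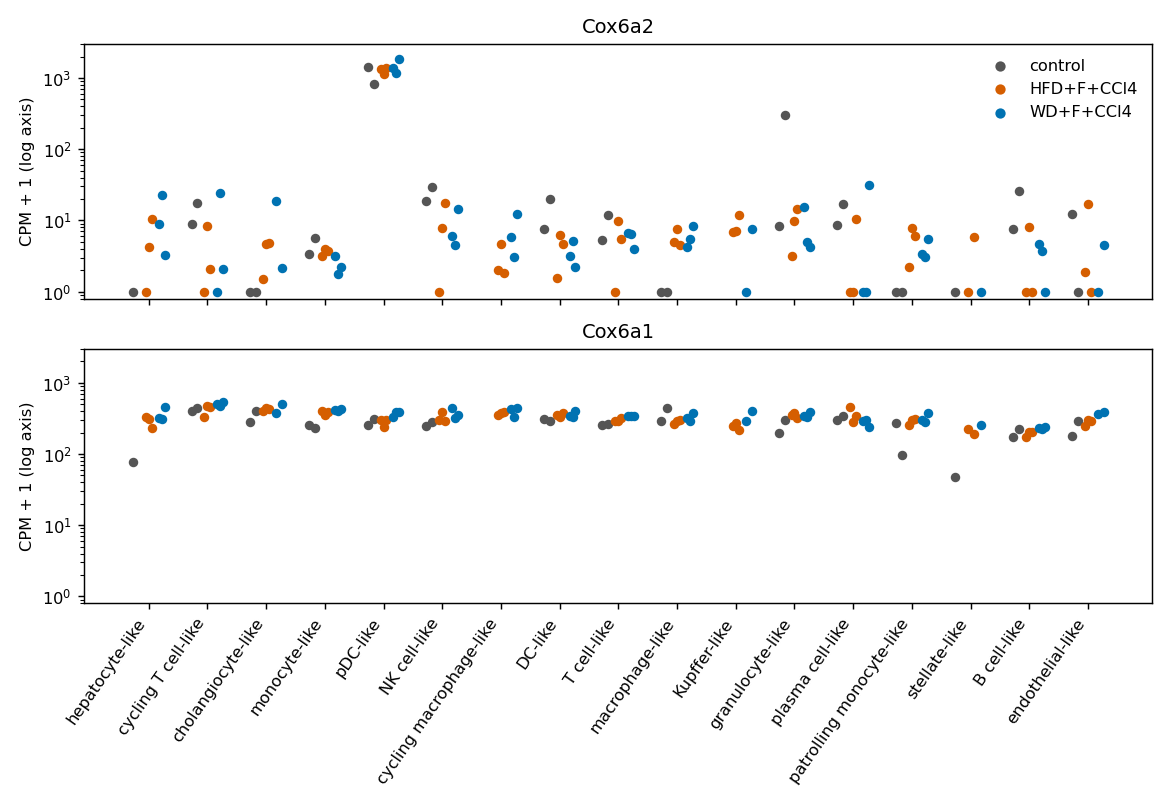
Cox6a2 (top) and Cox6a1 (bottom) by cell type, as CPM + 1 on a log axis, 1 dot per mouse. pDC-like cells lie at 832 to 1818 CPM of Cox6a2 in all 8 mice, while Cox6a1 is present in every type.

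The level of Cox6a2 over a whole sample is set out beside the number of these cells. pDC-like cells made up 3.77% and 6.55% of the kept cells of the control mice, 0.179%, 3.14% and 1.89% in the HFD+F+CCl4 mice and 3.56%, 2.21% and 3.18% among the WD+F+CCl4 mice. Cox6a2 over all kept cells was at 95.2 and 105.9 CPM, at 4.29, 26.9 and 25.3 CPM, and at 58.1, 31.4 and 54.9 CPM in the same order. Every NASH mouse was below both controls in this whole-sample level, while within pDC-like cells the groups overlapped. Cluster 9, with its 1594 and 2048 control cells at 65.6 and 79.1 CPM, also counts in the control values, and the parts of the 2 cell groups in the level over all cells were not separated.

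The other restricted forms were found at low levels. Cox7a1, the muscle form of subunit VIIa, was highest in cholangiocyte-like cells, at 71.6 and 0 CPM in the control mice, 83.1, 45.5 and 19.0 CPM in the HFD+F+CCl4 mice and 30.7 and 38.0 CPM in the 2 WD+F+CCl4 mice with enough cells. It exceeded hepatocyte-like cells by 1.33 ± 1.24 on the log2 scale in 5 of 6 mice (exact permutation p = 0.0625, adjusted p = 0.219). Ndufa4l2, a hypoxia-responsive paralog of Ndufa4, and Cox4i2, the lung form of subunit IV, were highest in stellate-like cells, at 36.1 ± 25.4 and 22.5 ± 16.1 CPM (SD, n = 4). These had too few mice to reach significance (adjusted p = 0.438 for both, exact permutation, smallest p possible 0.125 and 0.25). Cox6b2, known from testis, had 18.2 ± 6.53 CPM in cholangiocyte-like and 14.3 ± 4.51 CPM in DC-like cells, a difference that was not resolved (0.27 ± 0.70 on the log2 scale, 5 of 7 mice, exact permutation, adjusted p = 0.51). Cox6c2 and Cox8b were tested too, with adjusted p of 0.51 and 1 in the exact permutation test, and no isoform gene reached an adjusted p under 0.05.

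The comparison with control mice asked whether the genes changed within a cell type in either model. In summed CPM, monocyte-like cells had 13990 and 11727 CPM in the control mice, 15007, 15722 and 16069 CPM in the HFD+F+CCl4 mice and 16726, 16517 and 15681 CPM in the WD+F+CCl4 mice. In granulocyte-like cells the values were 8580 and 10704 CPM, 11086, 13227 and 12376 CPM, and 13271, 12660 and 12759 CPM. These were the 2 types, of 13 with 2 control mice, in which every NASH mouse was above both controls; all WD+F+CCl4 mice were above both controls in 8 of the 13 types and all HFD+F+CCl4 mice in 2. Plasma cell-like cells went the other way in summed CPM, with 13020 and 12352 CPM in the control mice and 10005 to 11982 CPM in the NASH mice. The direction differed in the added edgeR fits given further below. There 48 (HFD+F+CCl4) and 49 (WD+F+CCl4) of 59 genes had a log2 fold change above 0. Their medians were 0.30 and 0.29, where those of all genes were -0.08 and -0.07. Named singly, 25.8% of these cells kept the name.

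Within clusters the granulocyte-like difference took another form. In cluster 4, which held 4852 of the 6729 cells and was led by Retnlg and Cxcr2, the control mice had 8015 and 8091 CPM (225 and 14 cells), the HFD+F+CCl4 mice 6812, 9711 and 5846 CPM and the WD+F+CCl4 mice 7768, 6237 and 7300 CPM. All WD+F+CCl4 mice were below both controls there, the opposite of the whole type, and the HFD+F+CCl4 mice lay on both sides. Cluster 18 (1221 cells) had 9745 to 12923 CPM in the NASH mice and only 8 and 1 cells of the control mice, so the values of the whole type compare mice of different cluster makeup. In cluster 24, led by the granule genes Camp, Elane and Mpo, the control mice had 9022 and 14773 CPM (17 and 14 cells) against 17360 to 19360 CPM in the NASH mice. In T cell-like cluster 8 the control mice had 14260 and 12777 CPM (53 and 30 cells), the HFD+F+CCl4 mice 12296, 15058 and 14923 CPM and the WD+F+CCl4 mice 16337, 16213 and 14756 CPM. All WD+F+CCl4 mice were above both controls, and HFD+F+CCl4 1 was below. In cluster 14 the groups overlapped, with 13615 and 15889 CPM in the control and 12308 to 15777 CPM in the NASH mice. In cluster 6, where 2 NASH mice had at least 10 cells, HFD+F+CCl4 2 had 15302 CPM and WD+F+CCl4 2 16127 CPM (89 and 14 cells), beside 13254 and 11990 CPM in the control mice. HFD+F+CCl4 1 was the lowest of the NASH mice in 12 of 16 types, and gave 92.7% of macrophage-like cluster 12 and 76.2% of patrolling monocyte-like cluster 11, where stress-response genes such as Fos and Hspa1a led.

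Gene by gene, several subunits rose in the WD+F+CCl4 model and few in the HFD+F+CCl4 model. UMI counts were summed per mouse and type and tested by edgeR's quasi-likelihood test with Benjamini-Hochberg adjustment over all genes tested in that type, in 8 types with at least 30 cells in enough mice. Over 486 tests, each of 1 gene in 1 type, WD+F+CCl4 against control gave 34 higher calls and 1 lower. Among such tests of all genes 3.03% were called higher and 3.49% lower. HFD+F+CCl4 against control gave 7 higher calls and 1 lower, beside 1.9% and 2.08%. A gene called in several types counts once per type. The log2 fold change was above 0 in 405 of the 486 tests for WD+F+CCl4 and in 309 for HFD+F+CCl4. Since both models were compared with the same 2 control mice, these counts are not independent of each other. In all, 16 of the 63 genes tested anywhere were called, 15 of them only higher.

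By cell type, WD+F+CCl4 called 8 of 61 higher in T cell-like cells (3.28% of all genes). It called 7 of 59 higher in NK cell-like cells (3.55%), in pDC-like cells 7 of 60 (3.67%), in DC-like cells 5 of 63 (6.09%), in monocyte-like cells 5 of 63 with 1 lower (4.76% and 5.14%) and in B cell-like cells 2 of 59 (1.78%). The counts in DC, monocyte and B cell-like cells were near the share of all genes, and those in T, NK and pDC-like cells were above it, a difference that was not tested. In cycling T cell-like cells 0 of 60 were called (0.576% of all genes) and in endothelial-like cells 0 of 61 (0.0502%), with 3 genes at an unadjusted p under 0.05 in each and 0 calls by DESeq2. The endothelial-like count rests on 1 WD+F+CCl4 mouse, so a count of 0 there says little. The median log2 fold change of the genes was 0.58 in NK cell-like, 0.46 in T cell-like, 0.40 in B cell-like, 0.33 in monocyte-like, 0.31 in pDC-like and 0.24 in DC-like cells, where that of all genes was between -0.02 and 0.03.

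Against control, HFD+F+CCl4 called 4 of 63 higher in DC-like cells (3.91% of all genes), 2 of 63 higher and 1 lower in monocyte-like cells (3.21% and 3.26%) and 1 of 61 higher in T cell-like cells (2.56%). It called 0 genes in B cell-like (0.793%), NK cell-like (1.51%), cycling T cell-like (1.1%), endothelial-like (0.368%) and pDC-like cells (0.894%), where 0, 6, 2, 4 and 9 genes had an unadjusted p under 0.05 and DESeq2 called 0 as well. The medians ran from -0.07 in pDC-like to 0.34 in endothelial-like cells. Some fits had fewer mice because a mouse had under 30 cells: HFD+F+CCl4 had 2 mice in B cell-like and pDC-like cells, and WD+F+CCl4 had 2 in cycling T cell-like and 1 in endothelial-like cells.

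**Figure D4:**
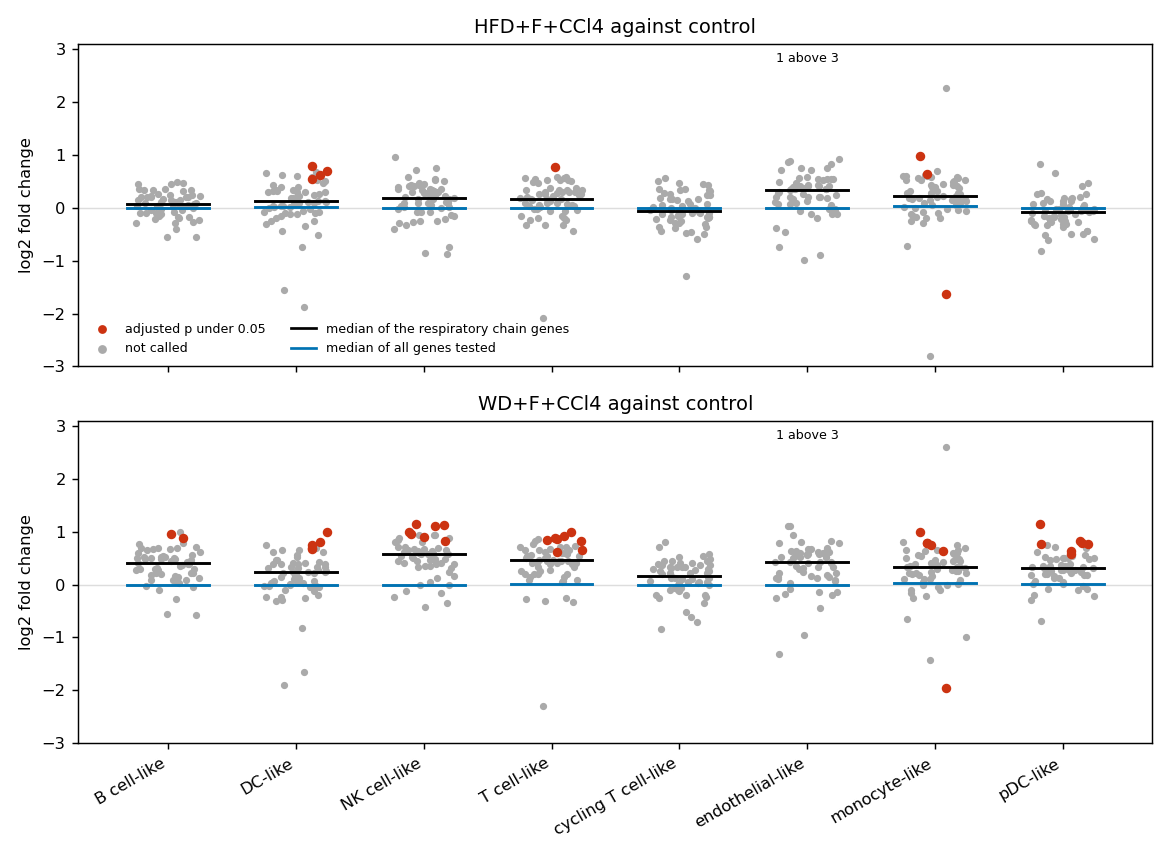
Log2 fold change of the genes (y axis) against control in the 8 cell types tested, HFD+F+CCl4 above and WD+F+CCl4 below; each dot is 1 gene, red where the adjusted p was under 0.05. The black line is the median of these genes and the blue line that of all genes tested, and 1 endothelial-like gene lies above the plotted range in each panel. The black line stands highest in NK cell-like cells of the WD+F+CCl4 panel, at 0.58.

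These counts hung on single mice and on which cells were compared. Without control 1 the WD+F+CCl4 calls in T, B, NK, pDC and monocyte-like cells were 0, 0, 3, 1 and 13, and without control 2 they were 0, 0, 1, 0 and 2. T cell-like calls were 13 without HFD+F+CCl4 1, which shares the estimate of spread, 2 and 5 without HFD+F+CCl4 2 and 3, and 1 and 0 without WD+F+CCl4 1 and 2. NK cell-like calls were 12 without HFD+F+CCl4 1 or WD+F+CCl4 3, 4 without HFD+F+CCl4 2, and 1 and 2 without WD+F+CCl4 1 and 2. Without HFD+F+CCl4 2, WD+F+CCl4 1 and WD+F+CCl4 2, pDC-like cells had 4, 4 and 3 calls and monocyte-like cells 3 each. B cell-like calls were 0 without WD+F+CCl4 1 or 2 and 1 without WD+F+CCl4 3, and DC-like calls 3 without control 2 and 8 without HFD+F+CCl4 1. Without the clusters that were almost all of 1 group, which took cluster 6 out of the T cell-like cells, the T cell-like calls were 0 in both models. This setting took no cells from the other 7 types and says nothing of them. The WD+F+CCl4 log2 fold changes in T cell-like cells were then 0.86 for Uqcrc1, 0.89 for Ndufa3, 1.01 for Cox5b and 0.85 for Ndufb10. For HFD+F+CCl4, the 4 calls in DC-like cells were 0 without control 2 and 2 without control 1, HFD+F+CCl4 2, HFD+F+CCl4 3, WD+F+CCl4 1 or WD+F+CCl4 2, the 3 in monocyte-like cells were 1 without control 2 or HFD+F+CCl4 3, and the 1 in T cell-like cells was 0 without either control, HFD+F+CCl4 2, HFD+F+CCl4 3 or WD+F+CCl4 2. The DC-like counts were also taken within each cluster, as a choice added after the data were seen. In cluster 7, WD+F+CCl4 called 1 of 62 higher, beside 1.9% of all genes, and HFD+F+CCl4 called 0, beside 0.73%, with 9 and 8 at an unadjusted p under 0.05. In cluster 15, WD+F+CCl4 called 15 of 59 higher (4.17% of all genes) and HFD+F+CCl4 3 (3.21%), and DESeq2 was run in neither cluster. Beside these counts, the hepatocyte markers in monocyte-like cells summed to 1174 to 2659 CPM in control and 18.4 to 449 CPM in NASH mice, and in DC-like cells to 904 to 1896 and 21.7 to 370 CPM.

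Complex III was represented among the calls by Uqcrc1, its core protein 1, which was called in 5 of the 8 types. In monocyte-like cells it had 94.2 and 97.8 CPM in the control mice, 204, 168 and 196 CPM in the HFD+F+CCl4 mice and 185, 194 and 188 CPM in the WD+F+CCl4 mice. The groups were well apart. Of 11566 genes tested there, 2484 were above both controls in every HFD+F+CCl4 mouse and 2885 in every WD+F+CCl4 mouse. The log2 fold changes of Uqcrc1 were 0.98 (SE 0.174, adjusted p = 0.00961) and 1.00 (SE 0.172, adjusted p = 0.00449). T cell-like cells had 76.6 and 87.9 CPM, 158, 126 and 125 CPM, and 132, 130 and 128 CPM. The groups again did not overlap, which with 2 control mice was common. Of 12060 genes tested there, 2102 were above both controls in every HFD+F+CCl4 mouse and 1554 in every WD+F+CCl4 mouse. Below both controls were 2512 and 3886. Uqcrc1 rose by 0.77 (SE 0.162, adjusted p = 0.0287) and 0.89 (SE 0.162, adjusted p = 0.0144). DC-like cells had 90.2 and 103 CPM, 153, 125 and 143 CPM, and 138, 153 and 184 CPM, with log2 fold changes of 0.62 (adjusted p = 0.0468) and 0.81 (adjusted p = 0.0116). Within DC-like cluster 7 they were 0.32 and 0.47 (adjusted p = 0.502 and 0.244), and within cluster 15 they were 0.76 and 0.98 (adjusted p = 0.0326 and 0.00959). In NK cell-like cells the values were 65.2 and 91.2 CPM, 136, 86.7 and 120 CPM, and 131, 125 and 181 CPM. There HFD+F+CCl4 2 fell among the controls, and the call was made for WD+F+CCl4 (1.14, SE 0.277, adjusted p = 0.0204) and not for HFD+F+CCl4 (0.71, adjusted p = 0.217). In pDC-like cells it had 76.3 and 62.7 CPM, 149, 111 and 148 CPM, and 131, 168 and 146 CPM, which gave 0.84 (adjusted p = 0.111, on 2 mice) and 1.14 (SE 0.219, adjusted p = 0.00905). In B cell-like cells, by contrast, the groups overlapped, with 69.8 and 84.1 CPM in the control mice and 74.5 to 137 CPM in the NASH mice.

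The promoters of the 5 genes called in 3 or more types are shown so that they can be compared, as a choice made after the calls were seen. These are Uqcrc1, the complex I genes Ndufa3 and Ndufa6, and the complex IV genes Cox5b and Cox7a2l. Each sequence is taken from RefSeq on GRCm38.p6, runs 5′ to 3′ on the strand of the gene and covers the 210 bases from 250 to 41 before its transcription start. Their positions are chr9:108936398-108936607 (plus strand) for Uqcrc1, chr7:3617123-3617332 (plus) for Ndufa3, chr15:82354332-82354541 (minus) for Ndufa6, chr1:36691237-36691446 (plus) for Cox5b and chr17:83514374-83514583 (minus) for Cox7a2l. The Cox7a2l window lies inside the longer gene of the GENCODE annotation (chr17:83501918-83517330). Capitals mark TGCGCA, a palindromic motif taken from the site of NRF1 and shorter than that site. NRF1 is a factor known to bind promoters of respiratory chain genes.
Uqcrc1: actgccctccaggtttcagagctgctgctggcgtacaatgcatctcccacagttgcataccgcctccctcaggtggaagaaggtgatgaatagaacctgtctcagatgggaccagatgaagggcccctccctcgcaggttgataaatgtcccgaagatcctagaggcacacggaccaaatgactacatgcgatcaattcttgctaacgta
Ndufa3: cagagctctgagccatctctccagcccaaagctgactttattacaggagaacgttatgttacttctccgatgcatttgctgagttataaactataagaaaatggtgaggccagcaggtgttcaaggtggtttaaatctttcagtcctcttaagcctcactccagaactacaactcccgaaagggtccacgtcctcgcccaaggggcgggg
Ndufa6: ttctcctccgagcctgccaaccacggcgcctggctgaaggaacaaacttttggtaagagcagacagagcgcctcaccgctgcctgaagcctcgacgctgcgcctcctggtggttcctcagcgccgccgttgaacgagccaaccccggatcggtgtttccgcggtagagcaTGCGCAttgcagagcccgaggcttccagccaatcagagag
Cox5b: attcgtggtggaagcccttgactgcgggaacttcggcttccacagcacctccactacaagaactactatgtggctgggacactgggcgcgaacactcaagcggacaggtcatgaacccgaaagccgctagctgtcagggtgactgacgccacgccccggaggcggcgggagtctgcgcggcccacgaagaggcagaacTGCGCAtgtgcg
Cox7a2l: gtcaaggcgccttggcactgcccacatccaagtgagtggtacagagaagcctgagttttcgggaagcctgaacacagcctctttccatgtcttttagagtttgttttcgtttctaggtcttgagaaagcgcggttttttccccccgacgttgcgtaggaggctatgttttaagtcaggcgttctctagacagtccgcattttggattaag

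TGCGCA was found at bases 80 to 75 before the start in Ndufa6 and at 52 to 47 in Cox5b, and not in the other three windows.

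Promoter windows were found for 53 of the 71 genes (55 windows of 250 bases), and motifs were searched on both strands. TGCGCA was in 12 of the 55 windows (21.8%) and in 6.43% of all 32851 windows of 27025 genes. The longer NRF1 palindrome was in 2 windows (3.64% against 0.782%). It was searched separately, and a match to it need not hold TGCGCA. The cyclic AMP response element TGACGTCA was in 4 (7.27% against 1.55%), and the ETS-type motif CCGGAAG, bound by GABP, in 8 (14.5% against 6.91%). AAGATGGC of YY1 and TCAAGGTCA of the estrogen-related receptors were in none (1.56% and 0.387% of all windows). The GC content was 55.7% against 53.2%, and these matches are a description of letters, not of binding.

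Complex I gave 5 of the 8 WD+F+CCl4 calls in T cell-like cells, where it has 37 of the 61 genes tested, with 3 of 36 in NK cell-like and 3 of 37 in DC-like cells. Ndufa3 was called in 6 types, more than any other of the genes. In T cell-like cells it had 347 and 331 CPM in the control mice, 466, 470 and 515 CPM in the HFD+F+CCl4 mice and 546, 583 and 529 CPM in the WD+F+CCl4 mice. The 3 groups were in this order with no overlap between them, and the log2 fold changes were 0.56 (adjusted p = 0.108) and 0.92 (SE 0.182, adjusted p = 0.0188). The share of all genes with the 3 groups in such an order was not counted, in these or in NK cell-like cells. In NK cell-like cells it had 355 and 291 CPM, 473, 416 and 454 CPM, and 689, 625 and 554 CPM, again without overlap (0.52, adjusted p = 0.289, and 1.10, SE 0.234, adjusted p = 0.00966). Of 5557 genes tested there, 737 were above both controls in every HFD+F+CCl4 mouse and 765 in every WD+F+CCl4 mouse. DC-like cells had 316 and 311 CPM, 424, 439 and 446 CPM, and 474, 466 and 485 CPM, and Ndufa3 was called in both models (0.55, adjusted p = 0.045, and 0.69, adjusted p = 0.0129). It had 0.67 and 0.79 within cluster 7 (adjusted p = 0.125 and 0.052), and 0.63 and 0.89 within cluster 15 (adjusted p = 0.0321 and 0.00514). B cell-like cells had 253 and 265 CPM, 323, 353 and 386 CPM, and 428, 463 and 373 CPM, with 0.96 for WD+F+CCl4 (SE 0.215, adjusted p = 0.028). In monocyte-like and pDC-like cells the WD+F+CCl4 values of 480 to 539 CPM were above the control values of 330 to 359 CPM, and the log2 fold change was 0.64 in each (adjusted p = 0.0328 and 0.0368).

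Ndufa6, an accessory subunit of the LYR protein family, was called in DC, T and pDC-like cells. DC-like cells had 239 and 240 CPM in the control mice, 395, 367 and 346 CPM in the HFD+F+CCl4 mice and 453, 441 and 447 CPM in the WD+F+CCl4 mice. The groups did not overlap. Of 12107 genes tested there, 2285 were above both controls in every HFD+F+CCl4 mouse and 2399 in every WD+F+CCl4 mouse. Ndufa6 rose by 0.69 (SE 0.139, adjusted p = 0.0122) and 0.99 (SE 0.14, adjusted p = 0.00152). For WD+F+CCl4 it was also called within cluster 7 (0.94, adjusted p = 0.0195), from 261 and 235 CPM to 452, 446 and 460 CPM, and within cluster 15 (0.90, adjusted p = 0.00319), from 233 and 241 CPM to 456, 415 and 422 CPM. For HFD+F+CCl4 it had 0.64 within cluster 7 (adjusted p = 0.119) and 0.65 within cluster 15 (adjusted p = 0.0202). T cell-like cells had 208 and 212 CPM, 278, 244 and 252 CPM, and 286, 284 and 288 CPM, a rise of 0.66 for WD+F+CCl4 (SE 0.154, adjusted p = 0.0342). In pDC-like cells WD+F+CCl4 rose by 0.77 (SE 0.169, adjusted p = 0.0192), from 213 and 234 CPM to 319, 379 and 357 CPM. Ndufb10, an accessory subunit of the distal membrane arm, had 136 and 104 CPM in control, 146, 183 and 203 CPM in HFD+F+CCl4 and 206, 175 and 196 CPM in WD+F+CCl4 T cell-like cells, where it rose by 0.87 for WD+F+CCl4 (SE 0.227, adjusted p = 0.0494). The other complex I calls, which the naming rule for the text did not select, were Ndufs7 (NK and T), Ndufs8 (DC), Ndufa7 (NK), Ndufa12 (T) and Ndufv2 (monocyte), all higher in WD+F+CCl4 mice by 0.67 to 0.91 on the log2 scale.

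**Figure D5:**
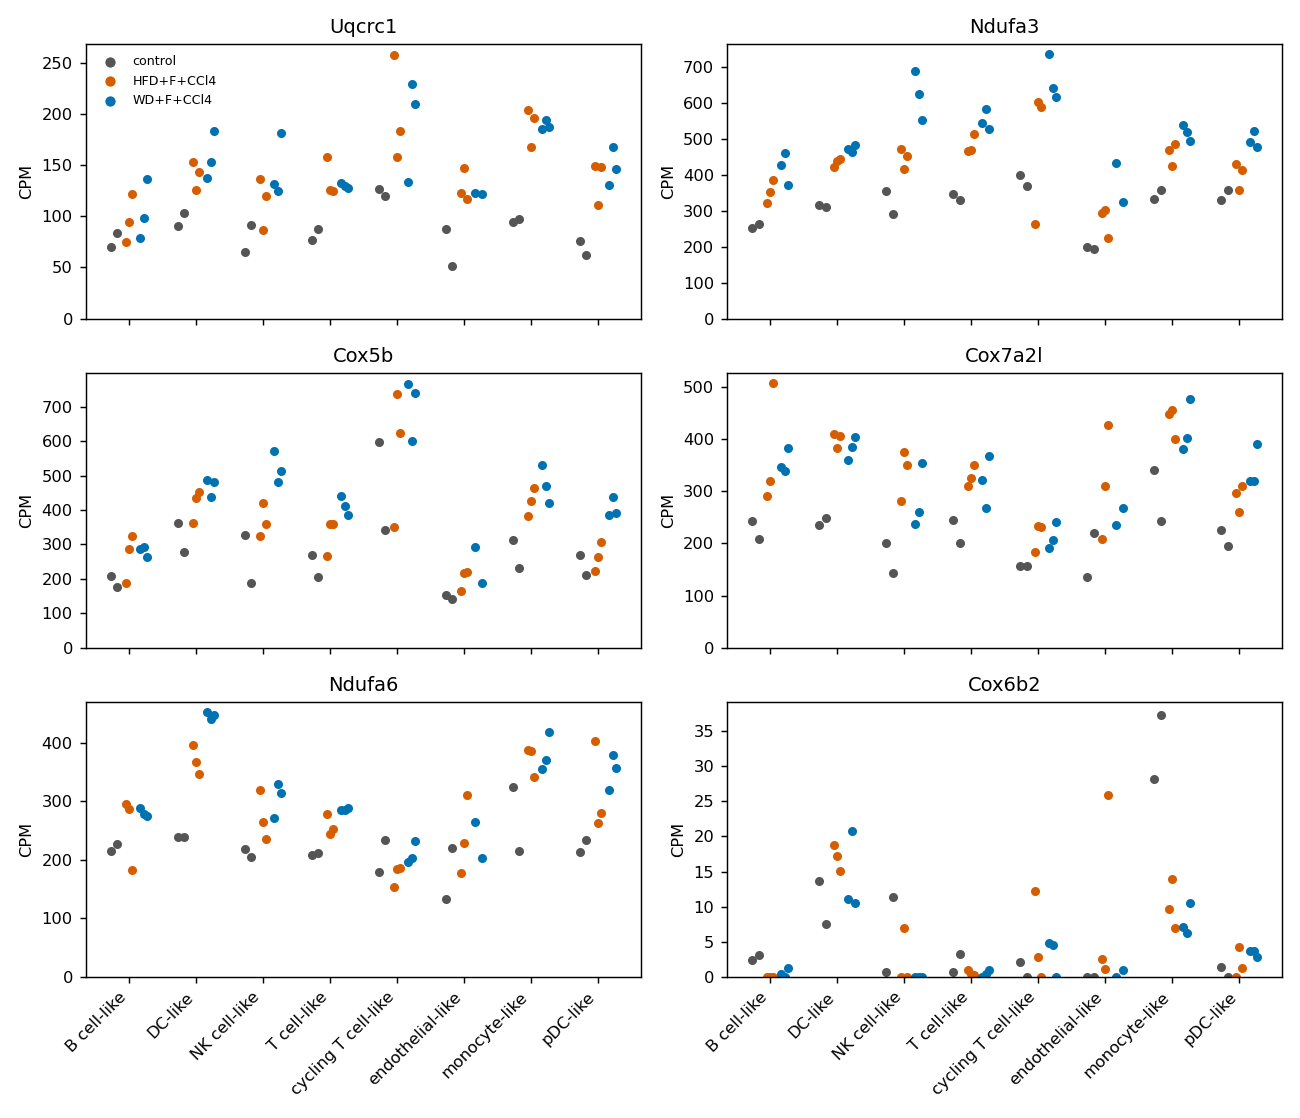
CPM by mouse of Uqcrc1, Ndufa3, Cox5b, Cox7a2l, Ndufa6 and Cox6b2 in the 8 cell types tested, coloured by group, 1 dot per mouse with at least 10 cells. Monocyte-like cells show the widest gap for Uqcrc1 (94.2 and 97.8 CPM in control, 168 to 204 CPM in NASH mice) and the fall of Cox6b2 (28.2 and 37.3 CPM against 6.21 to 14.0 CPM).

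Among complex IV genes, Cox5b, a zinc-binding subunit on the matrix side, was called higher in WD+F+CCl4 NK, T, pDC and monocyte-like cells. NK cell-like cells had 328 and 188 CPM in the control mice, 325, 420 and 359 CPM in the HFD+F+CCl4 mice and 572, 482 and 513 CPM in the WD+F+CCl4 mice. Control 1 lay among the HFD+F+CCl4 mice, and all WD+F+CCl4 mice were above (1.12, SE 0.263, adjusted p = 0.0175). T cell-like cells had 270 and 207 CPM, 268, 360 and 359 CPM, and 441, 411 and 385 CPM (0.99 for WD+F+CCl4, SE 0.239, adjusted p = 0.039). In pDC-like cells it rose by 0.83 (SE 0.189, adjusted p = 0.0216), from 270 and 212 CPM to 385, 439 and 391 CPM. The monocyte-like difference was 0.78 (SE 0.223, adjusted p = 0.0483), with 313 and 233 CPM in the control and 532, 470 and 422 CPM in the WD+F+CCl4 mice.

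Cox7a2l, counted with complex IV by its name, was called in both models in DC-like cells. These had 236 and 249 CPM in the control mice, 410, 384 and 407 CPM in the HFD+F+CCl4 mice and 361, 385 and 405 CPM in the WD+F+CCl4 mice. Both models were far above control and overlapped each other (0.79, SE 0.144, adjusted p = 0.00705, and 0.75, SE 0.144, adjusted p = 0.00696). Within neither DC-like cluster was it called. In cluster 7 it had 297 and 168 CPM in the control and 398 to 456 CPM in the NASH mice (0.84 and 0.79, adjusted p = 0.117 and 0.101). In cluster 15 it had 221 and 265 CPM in the control, 351, 323 and 327 CPM in the HFD+F+CCl4 and 244, 286 and 339 CPM in the WD+F+CCl4 mice, so that WD+F+CCl4 overlapped control (0.50 and 0.30, adjusted p = 0.0975 and 0.319). For WD+F+CCl4 it also rose in B cell-like cells by 0.88 (SE 0.206, adjusted p = 0.037) and in pDC-like cells by 0.80 (SE 0.184, adjusted p = 0.0225). Cox6a1 rose in monocyte-like cells of both models, with 252 and 228 CPM in the control mice, 395, 354 and 384 CPM in the HFD+F+CCl4 mice and 408, 402 and 424 CPM in the WD+F+CCl4 mice (0.64, adjusted p = 0.0478, and 0.79, adjusted p = 0.0148). Cox6a1 was also called for WD+F+CCl4 in T cell-like cells, and Cox5a, another matrix-side subunit, in NK cell-like and pDC-like cells, outside the naming rule. Cox7b, an accessory subunit, rose in WD+F+CCl4 NK cell-like cells by 0.99 (SE 0.227, adjusted p = 0.015), from 336 and 359 CPM to 672, 607 and 540 CPM.

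Cox4i1 was the only one of the 59 genes tested in all 8 types for which every NASH mouse in the fits was above both controls in each type, as were 16 of all 5254 genes so tested (0.305%). Of the 59, 0 lay below both controls throughout, against 34 of all genes (0.647%). In T cell-like cells it had 589 and 562 CPM in the control mice, 749, 868 and 860 CPM in the HFD+F+CCl4 mice and 762, 772 and 797 CPM in the WD+F+CCl4 mice. Monocyte-like cells had 928 and 601 CPM, 1194, 1319 and 1270 CPM, and 1237, 1178 and 1175 CPM. It was called only for WD+F+CCl4 in pDC-like cells, where it had 778 and 769 CPM in the control and 1124, 1074 and 1011 CPM in the WD+F+CCl4 mice (0.57, SE 0.156, adjusted p = 0.0461). In the other 7 types its adjusted p for WD+F+CCl4 was 0.0636 to 0.855.

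Cox6b2 was called lower. Monocyte-like cells had 28.2 and 37.3 CPM in the control mice (47 and 8 UMIs), 9.65, 14.0 and 7.02 CPM in the HFD+F+CCl4 mice and 7.06, 6.21 and 10.4 CPM in the WD+F+CCl4 mice. The groups did not overlap, and the HFD+F+CCl4 mice fell by 1.62 (log2, SE 0.365, adjusted p = 0.0253) and the WD+F+CCl4 mice by 1.97 (SE 0.344, adjusted p = 0.00486). Of 11566 genes tested there, 2066 were below both controls in every HFD+F+CCl4 mouse and 2624 in every WD+F+CCl4 mouse.

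Of the 4 complex II genes, 0 were called by edgeR in any of the 8 types in either model. At an unadjusted p under 0.05 there were 0 tests for HFD+F+CCl4 and 6 for WD+F+CCl4, all of them Sdhb and higher, and DESeq2 called 0. Within DC-like cluster 15 Sdhb was called for WD+F+CCl4 (0.70, SE 0.208, adjusted p = 0.0469). In T cell-like cells Sdha had 129 and 161 CPM in the control mice, 115, 109 and 108 CPM in the HFD+F+CCl4 mice and 96.1, 82.5 and 119 CPM in the WD+F+CCl4 mice. Every NASH mouse was below both controls, yet the log2 fold changes of -0.33 and -0.32 did not pass (adjusted p = 0.271 and 0.248). Of 12060 genes tested there, 2512 were below both controls in every HFD+F+CCl4 mouse and 3886 in every WD+F+CCl4 mouse. Sdhb had 94.0 and 97.8 CPM, 98.2, 127 and 133 CPM, and 120, 136 and 139 CPM, with 0.37 and 0.67 (adjusted p = 0.279 and 0.0591). In WD+F+CCl4 mice the log2 fold change of Sdhb was 0.84 in NK cell-like and 0.68 in pDC-like cells (adjusted p = 0.0621 and 0.0565). Sdhc and Sdhd lay within -0.41 to 0.57 in all 8 types and both models. Whether complex II differed from the other complexes was not tested.

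Cell types with few control cells were tested with a minimum of 10 cells per mouse, a choice made after seeing the data. In granulocyte-like cells (29 cells in control 2) HFD+F+CCl4 called Uqcrc1 and Ndufa5 higher (1.64% of all genes) and WD+F+CCl4 called 8 genes (3.25%), among them Uqcrc1 at 1.34 (SE 0.27, adjusted p = 0.0177) and Ndufa5 at 1.67 (SE 0.314, adjusted p = 0.0138). In plasma cell-like cells HFD+F+CCl4 called 5 of 59 genes higher (8.5%), below the share of all genes (9.83%). Uqcrc1 was at 1.21 there (SE 0.348, adjusted p = 0.0198). The HFD+F+CCl4 mice had only 10 to 22 of these cells each. In CPM, 4 of the 59 genes were above both controls in every HFD+F+CCl4 mouse and 18 were below both. Not all of the 5 called genes were therefore above both controls in every such mouse. WD+F+CCl4 called 0 in plasma cell-like cells (2.23% of all genes), with 13 at an unadjusted p under 0.05. Without control 1 the counts of 2, 8 and 5 were each 0; without control 2 they were 2, 8 and 1, and without any WD+F+CCl4 mouse the 8 became 2. In cholangiocyte-like, macrophage-like and patrolling monocyte-like cells edgeR called 0 of the genes in either model, with 1 to 10 at an unadjusted p under 0.05. All genes called higher there by HFD+F+CCl4 and WD+F+CCl4 were 0.242% and 0.3% in cholangiocyte-like, 0.00688% and 0.0138% in macrophage-like and 0.086% and 0.0946% in patrolling monocyte-like cells. Uqcrc1 had a log2 fold change above 0 in all 13 types with 2 control mice for both models, and it was called in 7 of them in at least 1 model. The granulocyte-like and plasma cell-like cells, with the limits given here, are among these 7. All 13 types share the same 2 control mice, and the share of all genes with such a pattern was not counted.

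Between the models, WD+F+CCl4 against HFD+F+CCl4 called 0 of the genes in any of the 8 types by edgeR (0% of all genes higher and 0.00743% lower), and DESeq2 called 0 too. The log2 fold change was above 0 in 407 of 486 tests, and the counts at an unadjusted p under 0.05 were 29 in pDC-like, 19 in NK cell-like, 7 in T cell-like and 5 in B cell-like cells and at most 1 in the others. In summed CPM, pDC-like cells had 14586, 12791 and 14484 CPM in HFD+F+CCl4 and 17005, 17151 and 17015 CPM in WD+F+CCl4 mice, beside 14983 and 13399 CPM in control mice (20 cells in HFD+F+CCl4 1). NK cell-like cells had 13215, 14774 and 15120 CPM in HFD+F+CCl4 and 19126, 17736 and 15481 CPM in WD+F+CCl4 mice. In both types the models did not overlap.

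Other genes of the pathway were counted from lists over the same 8 types, beside 3.03% of all tests called higher in WD+F+CCl4 and 1.9% in HFD+F+CCl4 mice. Of the ATP synthase genes, 10 of 128 tests were called in WD+F+CCl4 and 3 in HFD+F+CCl4 mice, each of them higher. All were Atp5k, a small membrane subunit, called in 6 types (1.37 in NK cell-like cells, SE 0.238, adjusted p = 0.00214, edgeR), and Atp5d, the delta subunit of the catalytic head's stalk, called in 4. Assembly factors gave 9 calls of 275 tests in WD+F+CCl4 and 4 in HFD+F+CCl4 mice, each of them higher, which is near the share of all genes. The complex II assembly factor Sdhaf1 led them, at 2.89 in WD+F+CCl4 NK cell-like cells (SE 0.392, adjusted p = 0.000252), and it was also called in B, T and monocyte-like cells. In DC-like cells the tricarboxylic acid cycle genes Fh1 and Mdh2, fumarase and malate dehydrogenase, rose in both models (2 of 104 tests in each, below the share of all genes in WD+F+CCl4 and near it in HFD+F+CCl4). Cycs, the gene of cytochrome c, fell in monocyte-like cells by 1.07 in HFD+F+CCl4 (adjusted p = 0.00795) and by 1.07 in WD+F+CCl4 mice (adjusted p = 0.00386). It also fell in HFD+F+CCl4 pDC-like cells, as the 3 calls among 40 tests per model of cytochrome c and other subunits. Among regulators of mitochondrial biogenesis Esrra, a nuclear receptor that acts on respiratory genes, rose in DC-like and monocyte-like cells of both models (0.91 to 1.09), and Ppargc1b, its coactivator, fell by 2.41 in WD+F+CCl4 DC-like cells (adjusted p = 0.0104).

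The mitochondrially encoded genes stood apart from all of these. They gave 8 higher and 15 lower calls of 104 tests in WD+F+CCl4 and 8 higher and 16 lower in HFD+F+CCl4 mice. All 8 higher calls were mt-Nd3, in every type, with log2 fold changes of 7.56 to 9.54 that cannot be told apart from a difference between libraries, and the lower ones were mt-Nd4l, mt-Co2, mt-Co3, mt-Atp6 and mt-Atp8. With the mitochondrial, hemoglobin and hepatocyte-secreted genes left out before scaling, each count of called nuclear genes stayed within 1.5 times its value.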

How the data were processed

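Single cells of 8 mouse livers (10x Genomics 3′ libraries) were sequenced, and the deposited file holds the UMI counts per gene and barcode that the authors made with Cell Ranger on GRCm38, from reads split by bcl2fastq 2.20, with the 8 libraries in 1 matrix. The Cell Ranger version is given differently by the file header and by the study's methods and is not stated here. Kept barcodes had over 500 genes and under 25% mitochondrial UMIs; libraries held 5305581 to 63878061 kept UMIs, and intervals cover counting error only.

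Scanpy 1.11.5 and leidenalg 0.10.2 clustered the cells on 2000 variable genes without the 71 genes and the pathway lists (195 genes left out in all; 30 components, 20 neighbours, resolution 0.8, 29 clusters). Clusters were named from fixed markers. In 3 clusters over 75% of cells carried markers of another lineage, and these were set aside as mixed (1601 cells). Cluster 9, led by genes of secreted hepatocyte proteins, stayed unnamed (3643 cells). The limits for both were set after seeing the data. No doublet caller was run, and an alternative left out the 5515 cells with another lineage's markers. Counts were summed per mouse and type, and edgeR 4.0.16 (TMM, filterByExpr with a minimum count of 10, R 4.3.3) fitted all mice with at least 30 cells together, with Benjamini-Hochberg adjustment over all genes tested in a type and a threshold of 0.05; DESeq2 1.42.0 was an alternative. SE is the log2 fold change divided by the square root of F. Nothing in the labels says more on replicates than that they are separate mice. Isoform genes were compared by an exact permutation test (SciPy 1.17.1) on log2(CPM + 1), with a minimum of 10 cells. On simulated counts for WD+F+CCl4 against control, edgeR recovered 2% (endothelial-like) to 35% (monocyte-like) of genes changed by 1 on the log2 scale.

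Genes named in the text were up to 12 calls in the type with the most kept cells, up to 4 per comparison in each other type, by size of change, together with the isoform genes and their partners, the complex II genes, and the highest and lowest gene of complexes I, III and IV; others are said to lie outside the rule. The genes, lists and tests were chosen with earlier results of these data known.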

Additional observations from a re-analysis of the deposited data

How the results depend on the processing

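The number of called genes per cell type depended on the processing, and the cause was not tested. For WD+F+CCl4 against control, the 2 calls in B cell-like cells were 0 without TMM, 1 with the replicate block and 0 in cells of more than 1000 genes; the 5 in DC-like cells were 8 by DESeq2, 12 without the filter, 1 within cluster 7 and 15 within cluster 15. The 7 in NK cell-like cells were 3 without TMM, 2 with the block and 3 without cells carrying another lineage's markers, and the 7 in pDC-like cells were 4, 1 and 2. The 8 in T cell-like cells were 13 by DESeq2, 5 without TMM, 1 with the block, 5 in cells of more than 1000 genes, 2 when cells were named singly and 0 without clusters of 1 group. The 6 in monocyte-like cells were 12 without TMM, 17 without the filter, 2 with the block, 2 in cells of more than 1000 genes and 3 at higher resolution. For HFD+F+CCl4, the 4 calls in DC-like cells were 9, 2, 1 and 0 without the filter, in cells of more than 1000 genes, without other-lineage cells and within cluster 7; the 1 in T cell-like cells was 2 by DESeq2, 0 with the block and 0 without clusters of 1 group; the 3 in monocyte-like cells were 6 without the filter, 1 with the block and 1 in cells of more than 1000 genes; and pDC-like cells had 1 without the filter. Leaving out each mouse gave, for WD+F+CCl4, 0 to 3 calls in B cell-like, 3 to 8 in DC-like, 1 to 12 in NK cell-like, 0 to 13 in T cell-like, 2 to 13 in monocyte-like, 0 to 6 in pDC-like, 0 to 8 in granulocyte-like, 0 to 15 in hepatocyte-like and 0 to 1 in plasma cell-like cells. For HFD+F+CCl4 it gave 0 to 4 in DC-like, 0 to 1 in NK cell-like, 0 to 1 in T cell-like, 1 to 3 in monocyte-like, 0 to 2 in granulocyte-like, 0 to 1 in hepatocyte-like and 0 to 9 in plasma cell-like cells. The log2 fold changes of the named genes never changed sign: 681 values stayed on their side of the threshold, 158 were no longer past it and 1 was newly past it. Cox6a2 passed an adjusted p of 0.05 (0.0469, exact permutation test) when cells were named singly (7.47 on the log2 scale) and without other-lineage cells (6.79). With 8 mice the unadjusted p of this test cannot be below 0.00781, and the adjusted value depends on how many isoform genes are tested. Passing the limit therefore does not stand for a stronger result, and the types were ranked on the same mice. The small Cox6b2 difference reversed to -0.005 without other-lineage cells. Of the summed levels per type and group, 320 values moved by less than the spread over mice and 25 by more. Mice with the same replicate number deviated together in no consistent way (correlations from -0.32 to 0.19). Deviations within groups of 2 or 3 mice are bound to each other, so these values cannot decide whether the numbers pair mice. With 2 control mice, gaps in depth and in mt-Nd3 between control and NASH libraries cannot be told apart from the treatment.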
